A study of Mus musculus with 6 samples.

Results

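The BCL2 family genes described here are 10 genes that set whether a cell survives or dies through its mitochondria. They were picked by symbol from the deposited table of 55487 genes, where each of the 10 symbols named 1 gene. By role they are 5 antiapoptotic genes (Bcl2, Bcl2l1, Mcl1, Bcl2a1b and Bcl2a1d), 1 pore-forming effector (Bak1) and 4 BH3-only genes (Bcl2l11, Bid, Bmf and Bik). The values come from 6 total RNA libraries. Mouse bone marrow cells had been enriched for the stem cell factor receptor Kit and transduced with a lentivirus that overexpressed MLLT3. In 3 libraries the vector carried wild type MLLT3 (WT), and in the other 3 it carried a form with K63E and K67E (DM), 2 substitutions in the protein. Both groups were sorted, cultured in methylcellulose (8 days; Flt3L at 10 ng/mL) together with further cytokines at 20 ng/mL each, among them EPO, SCF, GM-CSF, IL-3, IL-6 and IL-11, and exposed to 4-hydroxytamoxifen at 200 nM, which per the labels deletes the endogenous Mllt3 gene. The deletion and the culture were common to both groups. The strain and age of the mice, the driver of the recombinase and whether the replicates came from separate animals are not given in the sources used here, so p-values measure the spread between these libraries, which may be technical.

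MLLT3 is a reader of acylated histones that sits in transcription elongation complexes, and the series title describes its YEATS domain as a reader of 7SK RNA as well. In the BCL2 family, antiapoptotic proteins hold the effectors BAX and BAK in check at the outer mitochondrial membrane, and BH3-only proteins, released by stress or by loss of growth factor, block the antiapoptotic proteins or act on the effectors directly. Once the effectors open the membrane, cytochrome c escapes and caspases are activated. In the bone marrow, MCL1 is required by stem and progenitor cells, BCL-xL by red cell precursors and platelets, and the BCL2A1 proteins are known from neutrophils, macrophages, mast cells and other cells of the immune system.

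The deposited numbers are rlog (regularized logarithm, log2) values, scaled for library size and pulled toward each gene's mean where counts are low, so that changes of low genes are understated. They carry no counts, and the depth is unknown. The median over the tested genes lay between 8.03 and 8.11 in the 6 libraries. Mllt3 itself, which the values do not divide into vector and endogenous transcripts, lay between 12.44 and 12.87 in WT and between 11.99 and 12.44 in DM (change -0.48, SE 0.137, limma adjusted p 0.0448), and the part of this difference in the results was not tested. Kit lay between 14.29 and 14.58 in WT and between 14.3 and 14.9 in DM, a change of 0.2 (limma adjusted p 0.368), so the marker used to select the cells was still present after culture. Mature myeloid markers were present too, as given below. A change is the DM mean minus the WT mean, tested with limma over the 18766 genes with a mean rlog value of at least 3, and called at a Benjamini-Hochberg adjusted p under 0.05. All 10 genes passed this filter, and the lowest single value among them was 3.75, in Bik.

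In cells with the substituted MLLT3, all 5 antiapoptotic genes were higher, by 0.34 to 0.79 on the log2 scale, which is 1.26-fold to 1.73-fold. None of the other 5 genes, the effector Bak1 and the 4 BH3-only genes, passed the test in either direction, and their changes ran from -0.11 to 0.2. Thus 5 of the 10 genes were called, all higher in DM, where 9.2% of all tested genes (1727 of 18766) were called higher, 4.71% lower and 13.9% in either direction. No overlap between the groups was seen for 6 of the 10, 5 of them higher in DM, beside 35.8% of all tested genes in either direction and 21.5% higher in DM. The median change was 0.27 over the 10 genes, 0.46 over the 5 antiapoptotic genes and 0.06 over the 4 BH3-only genes, beside 0.01 over all tested genes. The 10 genes were chosen with earlier results of these data known, so these counts beside all tested genes are a description. Bcl2a1b and Bcl2a1d are alike in most of their sequence, so their calls may rest in part on the same reads.

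**Figure D1:**
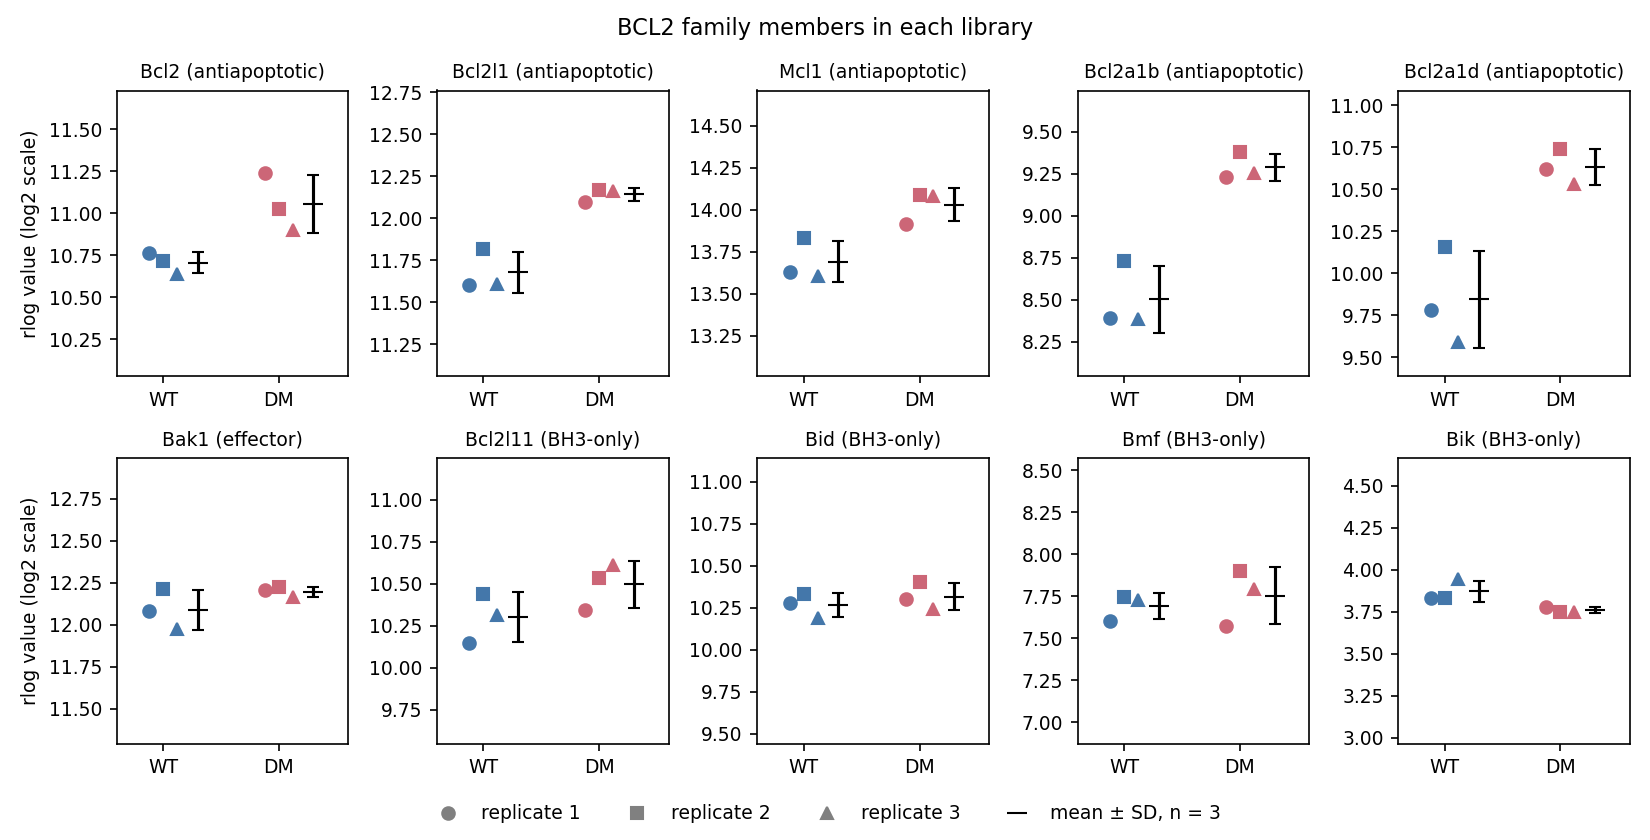
The rlog value (log2 scale) of each of the 10 genes in each library, WT in blue and DM in red, with the mean ± SD (n = 3) in black and every panel spanning the same height. All DM points lie above all WT points for the 5 antiapoptotic genes in the top row, while the groups overlap for Bak1, Bcl2l11, Bid and Bmf, and Bik lies slightly lower in DM.

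The widest differences were in Bcl2a1b and Bcl2a1d, mouse copies of the gene for BCL2A1 (A1, BFL1), a short-lived antiapoptotic protein induced in activated and inflammatory cells. Bcl2a1b (ENSMUSG00000089929.1) lies on chromosome 9 from 89199209 to 89207827 on the plus strand, and Bcl2a1d (ENSMUSG00000099974.1) on chromosome 9 from 88723285 to 88731914 on the minus strand, in GENCODE M21 on GRCm38, the assembly also called mm10, which the submitters' processing notes name. A further copy, Bcl2a1a (ENSMUSG00000102037.1), lies between them on the plus strand. The coding sequences of the 3 copies are 516 bases long and differ at 12 positions, of which 7 fall in the first 120 bases. The first 120 bases are shown because they hold most of the coding positions by which a read can be assigned to a copy. Noncoding parts of the transcripts can differ as well. Capitals mark the positions at which the 3 copies are not all alike, and the sequences come from the GENCODE M21 transcripts.
Bcl2a1a: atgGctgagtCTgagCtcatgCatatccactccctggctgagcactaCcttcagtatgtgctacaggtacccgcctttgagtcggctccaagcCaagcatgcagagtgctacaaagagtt
Bcl2a1b: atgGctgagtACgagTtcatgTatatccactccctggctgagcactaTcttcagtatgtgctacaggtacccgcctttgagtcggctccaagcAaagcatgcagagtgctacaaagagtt
Bcl2a1d: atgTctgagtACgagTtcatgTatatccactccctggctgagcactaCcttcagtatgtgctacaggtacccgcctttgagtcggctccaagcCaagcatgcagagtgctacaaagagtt
Bcl2a1b and Bcl2a1d were 98.8% identical over the coding sequence, Bcl2a1a and Bcl2a1d 98.6%, and Bcl2a1a and Bcl2a1b 97.9%. Of all windows of 50 bases in the annotated transcript, 79.2% in Bcl2a1b and 79.5% in Bcl2a1d were also found in a transcript of another gene, mostly of another copy. Gm29094, annotated on the same strand, also shares exon sequence with Bcl2a1b. How the authors' counting treated reads that match several copies is not given in the sources used here, so the values of single copies are uncertain.

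In WT replicates 1 to 3, Bcl2a1b had rlog values of 8.39, 8.73 and 8.38, and in DM replicates 1 to 3 it had 9.23, 9.38 and 9.25. Every DM library was above every WT library, with a gap of 0.5 between the nearest of them, and WT replicate 2 was the highest of the WT libraries. The mean rose from 8.5 ± 0.198 (SD, n = 3) to 9.29 ± 0.0806 (SD, n = 3), a change of 0.78 (SE 0.0997, limma adjusted p 0.00205), or 1.72-fold. Bcl2a1d had rlog values of 9.78, 10.15 and 9.59 for WT and 10.62, 10.74 and 10.53 for DM. The order of the libraries was again that all DM values exceeded all WT values and that WT replicate 2 stood above the other WT libraries. The mean rose from 9.84 ± 0.286 (SD, n = 3) to 10.63 ± 0.106 (SD, n = 3), a change of 0.79 (SE 0.127, limma adjusted p 0.00584), or 1.73-fold. Only 0.49% of tested genes had a larger change than Bcl2a1b, and 0.469% had a larger one than Bcl2a1d. Bcl2a1a, not among the 10 genes, moved the same way, from 9.77, 10.17 and 9.98 in WT to 10.47, 10.72 and 10.59 in DM (change 0.62, SE 0.106, limma adjusted p 0.00683). The fourth copy, Bcl2a1c, lay between 1.38 and 1.43 in all 6 libraries, under the filter. The linear values of the 4 copies were also summed in each library, to lessen the dependence on how reads were divided among them. The summed feature was 11.03, 11.41 and 11.05 in WT against 11.81, 11.99 and 11.83 in DM. The sum thus rose by 0.71 (SE 0.106, limma adjusted p 0.00417), and the groups did not overlap. Reads lost because they matched several copies are not recovered by this sum. Some dependence remains, since rlog pulls each copy toward its own mean, and reads given to Gm29094 are outside the sum.

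The promoters of the 3 expressed copies are nearly identical as well, and they are printed for comparison. Whether each copy rose separately was not tested, since reads may be divided among the copies. Each window holds 250 bases before and 50 bases after the RefSeq start site on GRCm38.p6, at chr9:88956670-88956969 on the plus strand for Bcl2a1a, chr9:89199023-89199322 on the plus strand for Bcl2a1b and chr9:88731801-88732100 on the minus strand for Bcl2a1d, each read on the gene's own strand. Capitals mark matches to TGANTCA, the core bound by AP-1 factors, followed by matches to GAGGAAGT, a core bound by ETS factors such as PU.1.
Bcl2a1a: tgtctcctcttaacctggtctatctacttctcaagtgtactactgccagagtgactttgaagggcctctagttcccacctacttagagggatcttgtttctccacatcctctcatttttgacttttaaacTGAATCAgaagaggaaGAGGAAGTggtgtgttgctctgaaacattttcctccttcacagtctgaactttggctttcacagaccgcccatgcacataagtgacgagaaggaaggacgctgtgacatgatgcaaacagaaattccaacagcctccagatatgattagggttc
Bcl2a1b: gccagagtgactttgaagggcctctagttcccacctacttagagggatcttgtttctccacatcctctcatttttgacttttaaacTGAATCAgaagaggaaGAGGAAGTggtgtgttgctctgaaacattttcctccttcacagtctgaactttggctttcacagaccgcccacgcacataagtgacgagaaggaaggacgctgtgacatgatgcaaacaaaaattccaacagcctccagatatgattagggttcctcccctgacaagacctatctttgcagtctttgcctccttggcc
Bcl2a1d: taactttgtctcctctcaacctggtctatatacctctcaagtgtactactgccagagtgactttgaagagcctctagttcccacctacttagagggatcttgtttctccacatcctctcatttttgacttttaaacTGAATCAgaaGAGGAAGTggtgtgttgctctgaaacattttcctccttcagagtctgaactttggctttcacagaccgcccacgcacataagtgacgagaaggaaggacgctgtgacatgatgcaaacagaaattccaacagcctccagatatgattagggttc
In local alignments Bcl2a1a and Bcl2a1b matched at 254 of 256 positions, Bcl2a1b and Bcl2a1d at 247 of 256, and Bcl2a1a and Bcl2a1d at 288 of 300. The RefSeq start of Bcl2a1b lies further into the shared sequence, which is why its window is offset. Of 5 motifs searched, 2 were found in these windows. Each of the 3 windows held 1 match to TGANTCA and 1 to GAGGAAGT on either strand, and the matches do not overlap. Of 32544 promoter windows of the same length, 7.79% held TGANTCA and 3.11% held GAGGAAGT. RefSeq windows were found for 9 of the 10 genes. Among those of the other members, Bak1 held GAGGAAGT and none held TGANTCA, so the other antiapoptotic genes did not share these letters in these windows. An NF-kB motif, in 8.49% of all windows, was in 1 window each of Bcl2l1 and Bmf and in no Bcl2a1 window. TGTTTAC, a core bound by FOXO factors (3.66% of all windows), was in 1 Bcl2l11 window, and TTCNNNGAA, the core bound by STAT factors (8.33%), was in no family window. The 3 Bcl2a1 windows were also poor in CG dinucleotides, with 3 to 4 each, beside a median of 7 over all windows. The Mcl1 window (chr3:95658471-95658770, plus strand) held 33 and is shown for contrast.
Mcl1: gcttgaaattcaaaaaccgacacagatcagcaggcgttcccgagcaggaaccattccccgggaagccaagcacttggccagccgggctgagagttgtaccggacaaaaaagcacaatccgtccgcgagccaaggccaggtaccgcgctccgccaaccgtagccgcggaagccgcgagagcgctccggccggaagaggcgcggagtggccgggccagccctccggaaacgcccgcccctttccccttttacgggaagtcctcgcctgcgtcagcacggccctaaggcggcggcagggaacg
The Bcl2 window, with 44 CG dinucleotides and a GC content of 76%, resembled that of Mcl1 (65.7%) more than those of the Bcl2a1 copies (44.3% to 46.7%). The 3 Bcl2l1 windows held 1, 14 and 22 CG dinucleotides, so antiapoptotic genes other than the Bcl2a1 copies were not all rich in them. Matches in a sequence are a description and say nothing on which factors were bound in these cells.

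Bcl2l1 (ENSMUSG00000007659.18; chromosome 2, 152780668 to 152831728, minus strand) encodes BCL-xL and, by alternative splicing, the shorter BCL-xS that promotes death. The gene-level values do not separate these forms. Bcl2l1 stood at 11.61, 11.82 and 11.61 in WT and at 12.1, 12.17 and 12.16 in DM. The DM libraries were tightly grouped and all above WT, with 0.28 between the highest WT and the lowest DM library. The mean went from 11.68 ± 0.121 (SD, n = 3) to 12.14 ± 0.0375 (SD, n = 3), a change of 0.46 (SE 0.0774, limma adjusted p 0.00636), or 1.38-fold. None of its windows of 50 bases occurred in a transcript of another gene. Bcl2l1, Bcl2a1b and Bcl2a1d kept their calls in every alternative applied to them, including each library left out in turn.

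Mcl1 (ENSMUSG00000038612.16; chromosome 3, 95658788 to 95663176, plus strand) encodes a rapidly turned over guardian of progenitor survival, which holds BAK and BIM. Its rlog values were 13.63, 13.83 and 13.61 in WT and 13.92, 14.09 and 14.08 in DM. No DM library was below a WT library, although only 0.08 separated WT replicate 2 from DM replicate 1. The mean rose from 13.69 ± 0.122 (SD, n = 3) to 14.03 ± 0.0983 (SD, n = 3), a change of 0.34 (SE 0.0906, limma adjusted p 0.0349), or 1.26-fold. This call was not stable. It was lost when WT replicate 1 (0.31, adjusted p 0.136), WT replicate 3 (0.3, 0.089), DM replicate 2 (0.31, 0.134) or DM replicate 3 (0.31, 0.125) was left out, and after quantile normalization, where the change was 0.16 (adjusted p 0.138).

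Bcl2 (ENSMUSG00000057329.7; chromosome 1, 106538178 to 106714274, minus strand) gave the family its name and is best known for the survival of lymphocytes and progenitors. It had rlog values of 10.77, 10.71 and 10.64 for WT and 11.24, 11.02 and 10.9 for DM. All DM values were higher, and DM replicate 1 was the highest, so the order of the DM libraries was unlike that of the other antiapoptotic genes, in which DM replicate 2 was highest. The mean rose from 10.71 ± 0.0639 (SD, n = 3) to 11.06 ± 0.173 (SD, n = 3), a change of 0.35 (SE 0.0906, limma adjusted p 0.0309), or 1.27-fold. Bcl2 lost its call when WT replicate 1 (0.38, adjusted p 0.0699), WT replicate 3 (0.32, 0.0678), DM replicate 1 (0.26, 0.0922) or DM replicate 2 (0.37, 0.0829) was left out, after quantile normalization (0.25, 0.0924) and without the filter on the mean (0.35, 0.0651). The annotation places the antisense gene D630008O14Rik over its exons, and whether reads were counted by strand is not given in the sources used here.

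Bak1 (ENSMUSG00000057789.14; chromosome 17, 27019810 to 27029009, minus strand), the effector BAK, forms pores in the mitochondrial membrane once it is freed from MCL1 and BCL-xL. Its values were 12.08, 12.21 and 11.98 in WT and 12.21, 12.22 and 12.16 in DM, so the groups overlapped. The change was 0.11 (SE 0.0769, limma adjusted p 0.37), with a 95% interval from -0.06 to 0.28. Exons of Ggnbp1 lie on the opposite strand over 17.1% of its windows of 50 bases.

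Bcl2l11 (ENSMUSG00000027381.16; chromosome 2, 128126038 to 128162547, plus strand) encodes BIM, the BH3-only protein that binds every antiapoptotic member and drives death when cytokines are withdrawn. It measured 10.14, 10.44 and 10.32 for WT and 10.34, 10.54 and 10.61 for DM. The DM libraries tended to be higher, but DM replicate 1 lay below WT replicate 2. The change was 0.2 (SE 0.0956, limma adjusted p 0.208), with a 95% interval from -0.02 to 0.41, so a rise as large as that of Bcl2 or Mcl1 lay within the interval.

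Bid (ENSMUSG00000004446.12; chromosome 6, 120891930 to 120916853, minus strand), which links death receptors to mitochondria after cleavage by caspase-8, measured 10.28, 10.33 and 10.19 for WT and 10.3, 10.4 and 10.24 for DM. Same-numbered libraries lay close together and the groups overlapped, with a change of 0.05 (SE 0.0714, limma adjusted p 0.666; 95% interval from -0.11 to 0.21). Its neighbour Bcl2l13 overlaps it on the opposite strand over 16.4% of its windows. Bmf (ENSMUSG00000040093.16; chromosome 2, 118528757 to 118549687, minus strand, the coordinates being those of another version of the same identifier), a sensor of cytoskeletal stress and lost attachment, measured 7.6, 7.75 and 7.73 for WT and 7.57, 7.9 and 7.79 for DM. DM replicate 1 was the lowest of all 6 libraries and DM replicate 2 the highest, and the change was 0.06 (SE 0.0929, limma adjusted p 0.679; 95% interval from -0.14 to 0.27).

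Bik (ENSMUSG00000016758.4; chromosome 15, 83526862 to 83544634, plus strand), a BH3-only protein of the endoplasmic reticulum, was the 1 member with a lower mean in DM. Its values were 3.83, 3.83 and 3.94 in WT and 3.78, 3.75 and 3.75 in DM, all DM libraries being lower by small amounts. The change was -0.11 (SE 0.0474, unadjusted limma p 0.0394, adjusted p 0.15). At this low level rlog values are strongly pulled toward the mean, and the median change of the 3160 tested genes with a mean from 3 to 4 was -0.06.

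**Figure D2:**
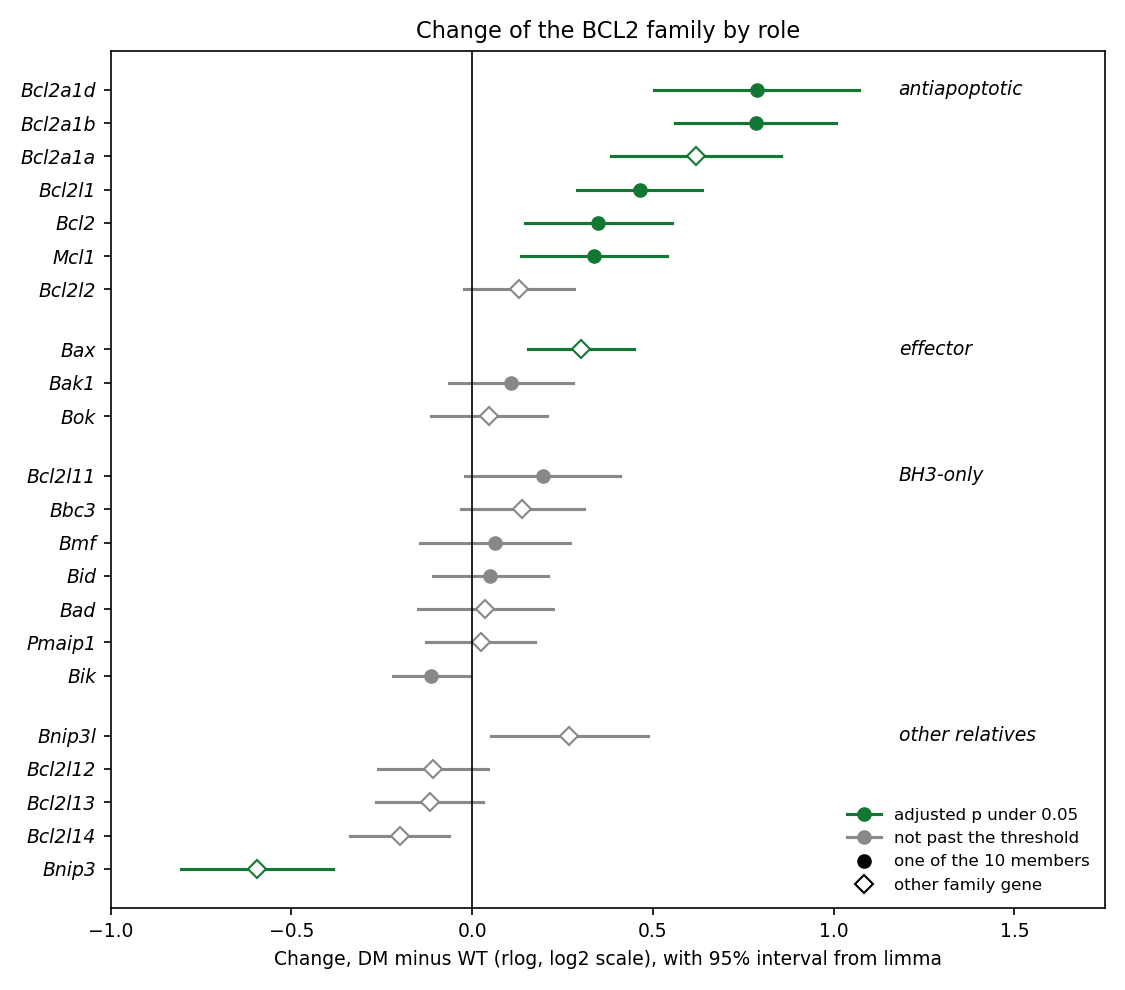
Change of each tested BCL2 family gene, DM minus WT on the log2 scale, as a point with its 95% interval from limma, ordered by role. Filled circles are the 10 genes, open diamonds are other family genes, and green marks an adjusted p under 0.05. The antiapoptotic genes other than Bcl2l2 lie from 0.34 to 0.79 with intervals right of 0, while Bcl2l2 lies at 0.13 with an interval that includes 0. Bax is the 1 effector called, and no BH3-only gene is called.

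How antiapoptotic genes moved beside their opponents was described by the difference of 2 genes within each library. The 5 antiapoptotic genes were set against Bcl2l11, Bak1 and Bax, the effector outside the 10 genes, while Bid, Bmf and Bik were not paired. These 15 pairs were chosen after the values were seen, and 3 against 3 libraries allow no two-sided exact permutation p under 0.1 (0.136 after adjustment over the 15 pairs). No pair could therefore pass 0.05, and the shifts are a description. Against Bcl2l11, the Bcl2l1 difference was 1.46, 1.38 and 1.3 in WT and 1.76, 1.63 and 1.55 in DM. The groups did not overlap, and the shift was 0.27 (exact permutation p 0.1). Bcl2a1b and Bcl2a1d shifted by 0.59 each against Bcl2l11, also without overlap (exact permutation p 0.1 for both). The shift was 0.15 for Bcl2 (exact permutation p 0.6) and 0.14 for Mcl1 (exact permutation p 0.2), and in both the groups overlapped. Against Bak1, all 5 antiapoptotic genes shifted upward without overlap, by 0.23 to 0.68. Against Bax, Bcl2l1, Bcl2a1b and Bcl2a1d shifted by 0.16, 0.48 and 0.49 without overlap, while Bcl2 (0.05) and Mcl1 (0.04) had overlapping groups.

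Levels of different genes were compared per kilobase of annotated exon, since longer transcripts yield more reads. On this linear scale (2 raised to the rlog value, per kilobase) Mcl1 was the highest of the 10 in both groups, at 3880 ± 337 in WT and 4900 ± 327 in DM (each SD, n = 3). In WT it was followed by Bak1 at 1810 ± 150, Bcl2a1d at 1080 ± 219, Bcl2l1 at 716 ± 61.7, Bcl2a1b at 447 ± 63.6 and Bid at 347 ± 16.7. Bcl2 (183 ± 8.05) and Bcl2l11 (158 ± 16) were lower, and Bmf (39.4 ± 2.14) and Bik (9.2 ± 0.417) were the lowest. In WT the libraries of no neighbouring pair in this order overlapped. In DM Bcl2a1d reached 1840 ± 136 and overlapped with Bak1 at 1950 ± 41.7, a pair that differed by less than its spread, and the order was otherwise the same. With the length of the longest coding transcript in place of all exons, Bcl2l1 stood above Bcl2a1d in WT, Bid above Bcl2a1b and Bcl2l11 above Bcl2. In DM each of these pairs kept the order it had with all exons. In WT these neighbours thus have no settled order. Their lengths come from GENCODE M21, and the annotation used by the authors is not given in the sources used here. The places of Bcl2a1b and Bcl2a1d are further uncertain in both groups. Of their windows of 50 bases, 79.2% and 79.5% are shared with other genes, and how such reads were counted is not given.

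**Figure D3:**
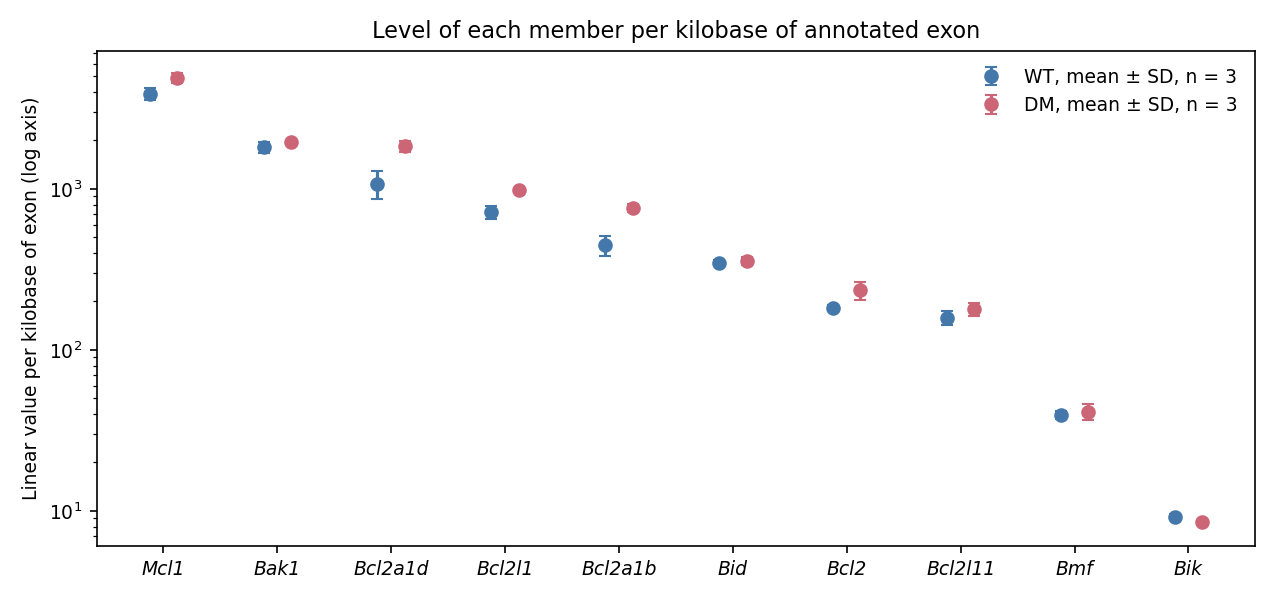
Linear value per kilobase of annotated exon (log axis) for the 10 genes, ordered by level in WT, with WT in blue and DM in red as mean ± SD (n = 3). Mcl1 lies highest at 3880 in WT and Bik lowest at 9.2, and Bcl2a1d in DM (1840) comes up to the level of Bak1 (1950). The levels of the Bcl2a1 copies depend on how reads that match several copies were counted, which is not given.

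The size of a change has to be read beside that of other genes of the same level. In the values as deposited, genes with higher means tended to be higher in DM. The median change was 0.11 over the 4078 genes with a mean from 10 to 12, of which 74% had a higher mean in DM, and 0.13 over the 1585 genes with a mean of 12 or more. After quantile normalization these medians were 0.01 and -0.01. Mcl1, at 0.34, was close to the upper quartile of 0.33 for genes with a mean from 13 to 14. Bcl2, at 0.35, was above the upper quartile of 0.21 for those with a mean from 10 to 11, and Bcl2l1, at 0.46, above that of 0.23 for those from 11 to 12. Under quantile normalization Bcl2l1 changed by 0.35 (limma adjusted p 0.00367), Bcl2a1b by 0.73 (0.0016) and Bcl2a1d by 0.71 (0.00358). Thus 3 of the 10 genes were called with that scaling and 5 with the values as deposited, beside 14.1% and 13.9% of all tested genes. Of all called genes, 66.1% were higher in DM as deposited and 51.3% after quantile normalization.

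**Figure D4:**
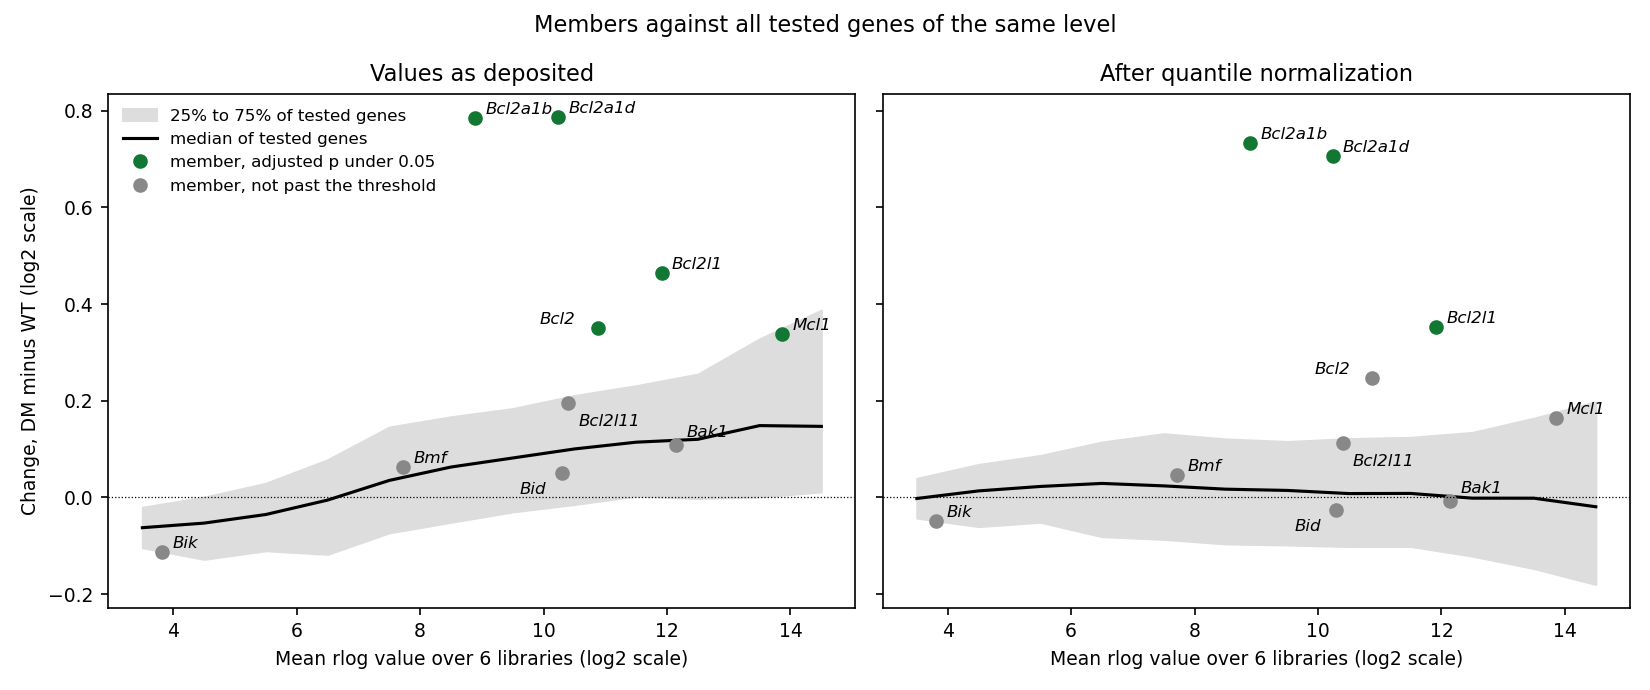
Change, DM minus WT on the log2 scale, against the mean rlog value over the 6 libraries, as deposited (left) and after quantile normalization (right). The black line is the median and the grey band runs from the lower to the upper quartile of tested genes, in steps of 1 on the horizontal axis and joined by lines, and points are the 10 genes, green where the adjusted p is under 0.05. The line rises with level on the left and stays near 0 on the right, where Bcl2 (0.25) and Mcl1 (0.16) are no longer called.

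Other genes of the family were taken from a list of 16, of which 12 passed the filter, 2 were called higher, 1 lower and 9 not called (median change 0.04). Besides Bcl2a1a, the gene called higher was Bax, the effector that moves from the cytosol to mitochondria. Bax measured 10.07, 10.12 and 10.05 for WT and 10.35, 10.45 and 10.34 for DM, without overlap, a change of 0.3 (SE 0.0655, limma adjusted p 0.0156). Leaving out WT replicate 1 (0.3, adjusted p 0.0669) or DM replicate 2 (0.26, 0.0803) ended the call, and Gm45808 shares exons with it on the same strand. So the rise within the family was not limited to antiapoptotic genes. The gene called lower was Bnip3, a mitophagy receptor induced by low oxygen, with 10.83, 10.76 and 10.46 for WT and 10.1, 10.08 and 10.09 for DM. Bnip3 thus differed by -0.59 (SE 0.0945, limma adjusted p 0.00552), and the antisense gene Gm45507 overlaps its exons. Its close relative Bnip3l, which clears mitochondria from maturing red cells, changed by 0.27 (adjusted p 0.1) and the groups overlapped. Bnip3l was called with the replicate block (0.27, adjusted p 0.0171), with array weights (0.28, 0.00863) and when WT replicate 2 was left out (0.34, 0.0389). The antiapoptotic Bcl2l2 changed by 0.13 (adjusted p 0.236). The BH3-only genes Bbc3 (0.14, adjusted p 0.255), Bad (0.04, 0.801) and Pmaip1 (0.02, 0.843), which encode PUMA, BAD and NOXA, were not called, nor was the effector relative Bok (0.05, 0.692). Bcl2l12 (-0.11, adjusted p 0.319), Bcl2l13 (-0.12, 0.268) and Bcl2l14 (-0.2, 0.0571) were not called either. Bcl2l13 was called lower after quantile normalization (-0.22, 0.0344), and Bcl2l14 with array weights (-0.22, 0.00139) and when WT replicate 2 was left out (-0.26, 0.013). The family genes Bcl2l10, Bcl2a1c, Hrk and Bcl2l15 were under the filter. Pmaip1, Bad and Bok each changed sign in at least 1 alternative.

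Downstream of the family, the 15 genes of mitochondrial execution, among them Cycs, Apaf1 and Casp9, were all tested and none was called (8 with a higher mean, median change 0.01). Of the 9 inhibitors of apoptosis, 1 was called, Birc5, which encodes survivin and is also a mitotic gene. It fell by 0.42 (SE 0.0783, limma adjusted p 0.00883), while the median of the list was 0.16. Of the 11 tested genes of the death receptor pathway, 2 were called, both higher, and 11 had a higher mean (median 0.2). Beside this, 9.2% of all tested genes were called higher, 51.6% had a higher mean, and among genes with a mean from 10 to 12 the share with a higher mean was 74% (median 0.11). The called genes of the death receptor list were Tnfrsf1b, a receptor for TNF, at 0.72 (SE 0.12, limma adjusted p 0.00648), and Cflar, which encodes the caspase-8 inhibitor FLIP, at 0.32 (SE 0.0799, limma adjusted p 0.0264). Fas, Tnfrsf1a, Tnfrsf10b, Fadd and Casp8, also in this list, were not called. Cflar lost its call in 6 of 14 alternatives, namely with no filter and when any 1 library other than WT replicate 2 was left out (adjusted p 0.0533 to 0.113). Of 19 genes known to set the levels of family members, 1 was called, Fbxw7, part of a ubiquitin ligase that marks MCL1 for degradation, at 0.31 (SE 0.0753, limma adjusted p 0.0228). The call ended with no filter (0.31, adjusted p 0.058), after quantile normalization (0.22, 0.064), and when WT replicate 1 (0.35, 0.0502), DM replicate 1 (0.27, 0.0834) or DM replicate 3 (0.31, 0.0769) was left out. Of the FOXO genes in this list, whose products activate BH3-only genes, Foxo1 (0.25, adjusted p 0.058) and Foxo4 (0.21, 0.0682) had non-overlapping groups, and Foxo3 (0.07, 0.557) had overlapping ones. None of these was called, and they are named after their values were seen.

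Markers of cell types moved in the same comparison. In bulk RNA, a larger share of cells of one type cannot be told apart from more RNA per cell. Of 12 monocyte and macrophage markers, 9 were called higher and 2 lower, and their summed level lay between 18.29 and 18.97 in WT and between 19.27 and 19.64 in DM on the log2 scale. Summed levels add the linear values of a list, so its highest genes weigh most in them. Ctss, Gpnmb and Cd68 were higher by 0.96, 0.96 and 0.94, and Ly6c2 was lower by 1.13 (change -1.13). Cd68, a lysosomal macrophage protein, was at 13.65, 14.12 and 13.45 in WT and at 14.57, 14.94 and 14.54 in DM. In each group replicate 2 was the highest, as it was for Bcl2a1b, Bcl2a1d, Bcl2l1 and Mcl1. The same held for Bax and for Bak1, Bid and Bmf, which were not called, so this order was not particular to the antiapoptotic genes. Of 16 neutrophil markers, 13 were called lower and none higher, with summed levels from 18.63 to 19.07 in WT and from 17.33 to 18.15 in DM. Mpo (-4.23), Elane (-3.96), Prtn3 (-3.37) and Ms4a3 (-2.7) led this list. The fall was not uniform. The 3 markers not called were Mmp8, which was higher (0.5, limma adjusted p 0.0521), Lcn2 (-0.45, 0.15) and Mmp9 (-0.21, 0.498). Of 10 proliferation genes, 8 were called lower, with summed levels from 16.02 to 16.18 in WT and from 15.62 to 15.8 in DM, led by Cdc20 (-0.66), Plk1 (-0.61), Rrm2 (-0.55) and Top2a (-0.48). The part of these shifts in the changes of the BCL2 family genes was not tested.

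The remaining marker lists moved less evenly. For eosinophils 3 of 6 were called lower, Epx (-1.46), Prg3 (-1.29) and Prg2 (-1.16), with summed levels from 14.97 to 15.09 in WT and from 13.46 to 14.06 in DM. For mast cells and basophils 1 of 10 was called, Hdc (-0.62, adjusted p 0.0457), which lost its call in 7 of 14 alternatives (highest adjusted p 0.139), with overlapping summed levels (18.9 to 19.26 in WT, 18.91 to 19.39 in DM). No erythroid marker of 9 tested was called (12.91 to 13.03 in WT, 12.69 to 12.99 in DM). Among megakaryocyte markers 2 of 7 were called higher, Gp1ba (0.55, lost in 2 of 14 alternatives) and Vwf (0.54), with levels from 14.22 to 14.48 in WT and from 14.5 to 14.88 in DM. Of 5 tested lymphoid markers Il7r (0.79) was called higher and Nkg7 (-1.89) and Cd79b (-0.27, lost in 2 of 13 alternatives) lower (summed level of the list 11.47 to 12.13 in WT, 12.33 to 12.51 in DM). Of 10 stem and progenitor markers Procr (0.73) and Mecom (0.52) were called higher and Myb (-0.65) and Flt3 (-0.3) lower, with summed levels from 15.14 to 15.48 in WT and from 15.12 to 15.63 in DM. Flt3 (adjusted p 0.0494) lost its call in 9 of 13 alternatives (highest adjusted p 0.163), Myb when DM replicate 2 (0.0529) or DM replicate 3 (0.0526) was left out, and Mecom without DM replicate 2 (0.0516). Among single libraries, leaving out WT replicate 2 (-0.67, adjusted p 0.0537), WT replicate 3 (-0.45, 0.104), DM replicate 2 (-0.43, 0.139) or DM replicate 3 (-0.67, 0.0938) ended the call of Hdc, and leaving out any but WT replicate 2 ended that of Flt3. No marker of any list was listed at 0 in all libraries.

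The tested genes whose 6 values, each centred on its own mean, lay nearest to those of Bcl2a1d by Euclidean distance were Cd180 (0.0944), Sh3pxd2b (0.0973) and Ly9 (0.119). Cd180, a Toll-like receptor relative on the surface of myeloid cells and B cells, measured 10.35, 10.69 and 10.22 for WT and 11.2, 11.33 and 11.04 for DM. Its libraries stood in the same order as those of Bcl2a1d, with WT replicate 3 lowest and DM replicate 2 highest. Bcl2a1b was at a distance of 0.183 (place 38 among tested genes) and Bcl2a1a at 0.407 (place 376). The likeness rests on 6 libraries in 2 groups and is a description.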

How the data were processed

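Total RNA libraries of 6 samples, 3 WT and 3 DM by the labels' titles, were compared. The submitters' processing notes name cutadapt 2.6, STAR 2.7.3, DESeq2 1.30.0 and the build mm10, while the counting tool, the use of strand and the annotation are not given in the sources used here. The deposited table holds rlog values on the log2 scale, as read from its name and its values. Its 142699 lines were merged into 55487 genes by dropping identical lines. Identifiers of 54435 genes matched GENCODE M21 (GRCm38) with their version, and a further 792 under another version. limma 3.58.1 in R 4.3.3 (lmFit, eBayes with a mean-variance trend, no covariates) was fitted to 18766 genes whose mean was 3 or more, and p-values were adjusted by Benjamini-Hochberg with a threshold of 0.05. The fit was tested on simulated data. The table holds no counts, so depth is unknown and intervals for counting error were not formed.

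The 10 members, the gene lists and the rule for named genes were chosen with earlier results of these data known. Named were all members, all genes of the list of other family genes, up to 4 called genes with the largest change in each further list, and the 3 genes nearest in pattern to the called member with the largest rise (no member was called lower). Further genes, such as the FOXO genes and the neutrophil markers not called, were named outside this rule. Alternatives were no filter, a mean of at least 5, no trend, quantile normalization, centring on the library median, protein-coding genes only, array weights, a block for the replicate number, each library left out, and the Bcl2a1 copies summed. Gene length as that of the longest coding transcript was added after seeing the data. Promoters came from RefSeq on GRCm38.p6, and plots were drawn with matplotlib 3.10.9. Some genes of the lists and 1 component of the culture medium are not reported here.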

Additional observations from a re-analysis of the deposited data

How the results depend on the processing

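The number of called genes was 2611 and moved most with array weights, where it was 6705 (the estimate of the weights stopped short of its convergence criterion), and with a library left out, where it ran from 1119 to 3475. Leaving out DM replicate 2 gave 1119, WT replicate 1 gave 1185 and DM replicate 3 gave 1537. Of the 10 members, 5 were called, 3 after quantile normalization, and from 3 to 5 with a library left out (3 when WT replicate 1, WT replicate 3 or DM replicate 2 was the one left out). Array weights called 6, Bcl2l11 being added (0.33, adjusted p 0.00662). The share of all tested genes called was 13.9% in the main fit and 14.1% after quantile normalization. It was 35.7% with array weights and 5.96% to 18.5% with a library left out. Bcl2l1, Bcl2a1b and Bcl2a1d were called in each of these fits. The cause of these differences was not tested.

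Same-numbered libraries deviated together with correlations of 0.491, 0.116 and 0.0412 for replicates 1 to 3, and 3 of the 6 libraries correlated best with their own number. With so few libraries this does not settle whether the numbers pair the samples, and the main fit used no pairing. The replicate block gave 3742 called genes (19.9% of those tested) and 5 called members, and it also called Bnip3l (adjusted p 0.0171).

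Among genes that were not called, the sign turned after quantile normalization for Bak1 (-0.0076), Bid (-0.0268), Bad (-0.0399) and Pmaip1 (-0.0567), with array weights for Bad (-0.0667) and after centring on the median for Pmaip1 (-0.0091). With a library left out, changes ran from -0.01 to 0.1549 for Bmf, -0.023 to 0.098 for Bok, -0.0165 to 0.1016 for Bad and -0.0057 to 0.065 for Pmaip1. The values below 0 came without DM replicate 2 for Bmf, Bok and Pmaip1, without DM replicate 1 for Bad, and without WT replicate 3 for Pmaip1 (-0.0015). Bik was not tested under a mean of at least 5. Low values limit what rlog can show for Bik. The change of Bcl2l11 had an interval that included 0.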
